A study of Mus musculus with 27 samples.

Results

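The comparison asked which genes differed under Wnt3a between mouse breast cancer cell lines that kept 1 functional set of Bcl9 and Bcl9L alleles (ΔHD1/fl) and lines that had only the ΔHD1 mutant alleles left (ΔHD1/-). Its groups were set by the sample labels alone, and it was chosen with earlier results of these data known. It holds 4 of the 27 RNA-sequencing libraries of the series, 2 ΔHD1/- and 2 ΔHD1/fl. All 24454 genes of the deposited table entered, and 13270 of them were tested, reaching 1 CPM (the counts-per-million unit of the deposited table) in 2 or more libraries. The lines came from tumors of thoracic mammary glands of FVB/N mice with the MMTV-PyMT transgene, an oncogene driven in mammary epithelium by a viral promoter. In ΔHD1/fl lines, labelled Bcl9/Bcl9L_deltaHD1/fl, 1 copy of both genes lacks the HD1 domain and the other copy is floxed and functional. In ΔHD1/- lines, labelled Bcl9/Bcl9L_deltaHD1/-, the floxed copy had been deleted, which the study's methods describe as infection with an adenovirus for Cre and GFP followed by sorting. All 4 lines thus carry the HD1 mutation, the PyMT oncogene and the FVB/N background. The groups differ in the floxed copy and in the lines themselves. The Wnt3a libraries received 100 ng/ml Wnt3a and are labelled 3 days, and the untreated libraries of the same lines are labelled 4 days, so Wnt3a and day cannot be told apart within a line. By the labels each genotype has 2 lines from 2 mice. The p-values measure the spread between lines, pooled over the 12 groups of all 27 libraries. The same lines recur across the conditions and were counted as independent in that fit, so the spread rests on fewer lines than libraries. The ΔHD1/- lines were made from cells with 1 floxed and 1 mutant allele, and the methods name a GFP-only virus as the control infection, so the groups may share tumors of origin. Which ΔHD1/fl line a ΔHD1/- line came from is not given in the sources used here.

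In canonical Wnt signaling, a Wnt ligand such as Wnt3a binds Frizzled and Lrp receptors, β-catenin escapes degradation and joins Tcf/Lef factors on DNA. Bcl9 and Bcl9L are adaptor proteins in this complex. Their HD2 domain binds β-catenin and their HD1 domain binds Pygopus, a reader of methylated histone H3, so that loss of HD1 separates Pygopus from β-catenin. Axin2, a scaffold of the β-catenin destruction complex, is the textbook feedback target of the pathway, and in the mammary gland Wnt signals are known for their action on basal and progenitor cells.

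The 4 libraries held 24699113 to 31544502 reads assigned to genes. Several markers divided the lines by number rather than by genotype. Cdh1 (E-cadherin) had 710 CPM in ΔHD1/- line 1 and 544 in ΔHD1/fl line 1, but only 0.121 and 0.107 in the lines 2. Vim (vimentin) was at 184 and 74.0 CPM in the lines 1 and at 3520 and 3470 in the lines 2. Epcam had 179 and 322 CPM in the lines 1, 0 in ΔHD1/- line 2 and 0.0355 in ΔHD1/fl line 2. Col3a1, a fibrillar collagen of mesenchymal cells, had 1700 and 1560 CPM in the lines 2 and 3.43 and 0 in the lines 1. The epithelial markers Cdh1 and Epcam were thus present in both lines 1 and nearly absent in the lines 2. Other markers did not follow the line number. Krt8, a luminal keratin, had 988 CPM in ΔHD1/- line 2 against 0.178 in ΔHD1/fl line 2, and the junction genes Pkp1 and Jup were present in both lines 2, Pkp1 at 267 and 540 CPM and Jup at 90.0 and 378. Pdgfrb, of the fibroblast list, had 236 CPM in ΔHD1/- line 1 and 7.29 in ΔHD1/fl line 1. The summed fibroblast list was at 4380 and 3000 CPM in the lines 2 and at 260 and 13.4 in the lines 1. Of 16 leukocyte markers 4 passed the filter, among them Csf1r at 175 CPM in ΔHD1/- line 2 against 0.454 to 19.1 in the other 3 lines, and of 12 endothelial and adipocyte markers 3 passed, with summed levels of 0.454 to 2.35 CPM. The groups overlapped for Cdh1, Vim, Epcam and Col3a1, and the part of this difference between lines in other results was not tested.

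The library of ΔHD1/fl line 1 under Wnt3a stood apart from the others. Its correlation with the same line without cytokine was 0.953 over tested genes, against 0.987 to 0.993 in the other 3 lines, and 1986 genes lay at least 1 log2 unit from the untreated level in it, against 333 in ΔHD1/fl line 2, 147 in ΔHD1/- line 1 and 494 in ΔHD1/- line 2. The values of both ΔHD1/fl lines are therefore given throughout.

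The deleted allele cannot be read directly from these data, since the gene totals do not separate the HD1 mutant from the floxed allele. Bcl9 (chromosome 3, 97203658 to 97298402, mm10) had 40.1 and 48.1 CPM in the ΔHD1/- lines and 104 and 80.1 in the ΔHD1/fl lines under Wnt3a. Both ΔHD1/- lines lay below both ΔHD1/fl lines, by a mean of -1.04 ± 0.30 (log2 fold change and its standard error, limma), and the difference did not pass the test (limma, adjusted p = 0.513, 0.0411 to 1 over the alternatives, passing without ΔHD1/fl line 2). Without cytokine the groups overlapped, at 44.5 and 67.8 against 34.0 and 66.0 CPM. Bcl9l (chromosome 9) overlapped in both conditions, with 346 and 144 CPM in ΔHD1/- against 155 and 268 in ΔHD1/fl under Wnt3a. Of the 13 tested members of the Bcl9, Pygopus and β-catenin complex list, 1 was higher and 1 lower without overlap of the groups, where 13.7% of all tested genes were higher and 9.95% lower, and β-catenin itself (Ctnnb1) had 1380 and 858 CPM against 1120 and 869.

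Under Wnt3a, 6 genes passed the test between ΔHD1/- and ΔHD1/fl, 0.0452% of those tested (limma on log2(CPM + 1) over all 27 libraries, Benjamini-Hochberg adjusted p at most 0.05 and a fold change of at least 2). Pak6, Tbc1d9 and Swap70 were higher (0.0226%) and Sema4a, Akr1c18 and Stra6 lower (0.0226%) in ΔHD1/-. At an unadjusted p under 0.05 there were 777 genes, 5.86% of those tested. In all 6 genes both ΔHD1/- lines lay on the same side of both ΔHD1/fl lines. On mm10 by the RefSeq annotation, Pak6 spans chr2:118663045-118698020, Tbc1d9 chr8:83165352-83272940, Swap70 chr7:110221703-110283506, Sema4a chr3:88435959-88461182, Akr1c18 chr13:4132615-4150646 and Stra6 chr9:58063793-58154004. The plot of levels by line shows these genes with Bcl9, Axin2 and Ahr.

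**Figure D1:**
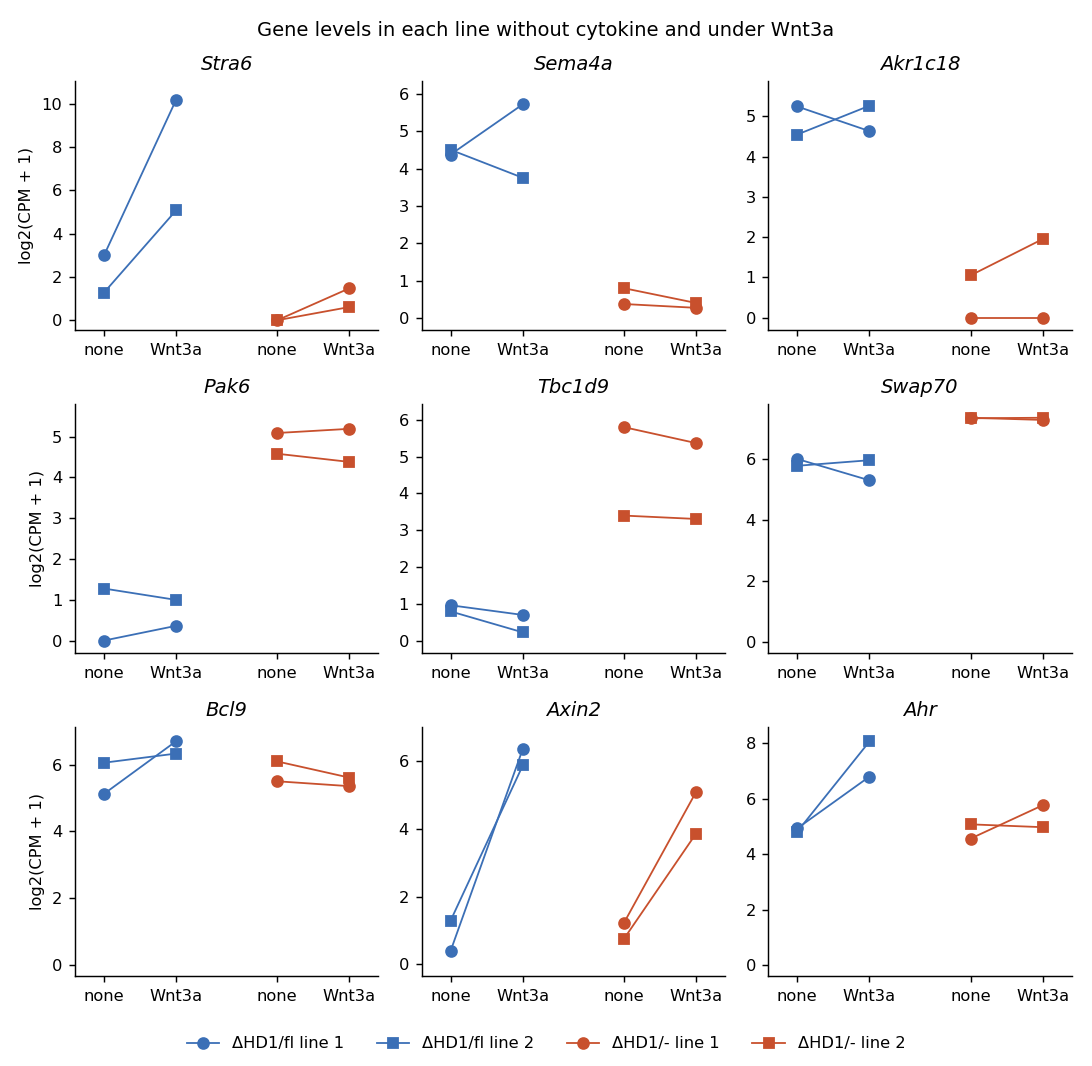
Levels of 9 genes as log2(CPM + 1) on the y axis, 1 point per library, with lines joining the untreated and the Wnt3a library of the same cell line (blue ΔHD1/fl, orange ΔHD1/-, circles line 1, squares line 2). The 6 genes that passed the test are in the upper 2 rows. Pak6, Tbc1d9, Swap70, Sema4a and Akr1c18 were apart at similar distances with and without Wnt3a, whereas Stra6, Axin2 and Ahr reached higher levels under Wnt3a in the ΔHD1/fl lines than in the ΔHD1/- lines.

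Stra6, the membrane receptor through which cells take up retinol from its binding protein, had the largest log2 fold change among the 6 genes. It was at 1.78 and 0.526 CPM in the ΔHD1/- lines and at 1160 and 32.7 CPM in the ΔHD1/fl lines under Wnt3a. Without cytokine it was at 0 in both ΔHD1/- lines and at 6.95 and 1.42 CPM in the ΔHD1/fl lines. The 2 ΔHD1/fl lines thus differed widely from each other under Wnt3a, line 1 being the higher, yet both lay above both ΔHD1/- lines. The log2 fold change was -6.58 ± 1.10 (limma, adjusted p = 0.0348), and the call was lost without ΔHD1/- line 2 (limma, adjusted p = 0.127, 3.3e-06 to 1 over the alternatives). Sema4a, a membrane semaphorin that signals through plexins, was at 0.210 and 0.324 CPM in ΔHD1/- and at 51.8 and 12.5 in ΔHD1/fl. Its log2 fold change was -4.40 ± 0.55 (limma, adjusted p = 0.00461). Untreated ΔHD1/fl lines had 19.8 and 21.7 CPM and untreated ΔHD1/- lines 0.299 and 0.742, so that this gene stayed below 1 CPM in ΔHD1/- with or without Wnt3a. Akr1c18, an aldo-keto reductase that converts progesterone to an inactive metabolite, had 0 and 2.87 CPM against 23.8 and 37.4, a log2 fold change of -3.97 ± 0.66 (limma, adjusted p = 0.0348). Its call was lost without ΔHD1/- line 1, the line at 0 (limma, adjusted p = 0.0826, 0.00547 to 0.817 over the alternatives).

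Pak6, a p21-activated kinase of the group that responds to Cdc42, was at 35.5 and 19.8 CPM in ΔHD1/- and at 0.285 and 0.995 in ΔHD1/fl. The log2 fold change was 4.10 ± 0.57 (limma, adjusted p = 0.00787). With a pseudocount of 0.1 the calls of Pak6 and Akr1c18 were lost. Tbc1d9, a protein with a TBC domain of the kind that acts on Rab GTPases, was at 40.2 and 8.91 CPM against 0.634 and 0.178, a log2 fold change of 3.86 ± 0.63 (limma, adjusted p = 0.0348). Both genes were below 1 CPM in both ΔHD1/fl lines. Swap70, a signaling protein of the actin cytoskeleton and of Rac, was abundant in every line, with 155 and 163 CPM in ΔHD1/- and 38.5 and 61.4 in ΔHD1/fl. Its log2 fold change was 1.69 ± 0.29 (limma, adjusted p = 0.0348), and its call was lost without ΔHD1/fl line 1 (limma, adjusted p = 0.106) and without ΔHD1/- line 2 (limma, adjusted p = 0.0996, 0.00191 to 0.636 over the alternatives).

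The number of calls depended on which libraries estimated the spread. With only the 12 ΔHD1 libraries in the fit no gene passed (limma, 379 genes at an unadjusted p under 0.05), and edgeR's quasi-likelihood test on the reads recovered from the CPM values called 1 gene, Tbc1d9. Leaving out 1 line gave more calls, 90 without ΔHD1/fl line 1, 703 without ΔHD1/fl line 2, 109 without ΔHD1/- line 1 and 36 without ΔHD1/- line 2, in fits that assume the lone line left to vary like the other groups.

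Promoter sequences are shown for 3 genes because the promoters of 3 of the 6 genes held the core hexamer of Tcf/Lef sites, CTTTGA, or its reverse complement TCAAAG. The search covered RefSeq promoters of 250 bases before to 50 bases after each start on GRCm38.p6, on both strands, and 18.2% of all 27025 RefSeq genes with a promoter held it at least once. Of the 13270 tested genes, 10461 had a promoter in this set, and 14.0% of those held it. The 3 sequences shown lie on the plus strand and run 5′ to 3′, with the hexamer in capitals. For Swap70 (chr7:110221453-110221702) and Tbc1d9 (chr8:83165102-83165351) the 250 bases before the start are given, and for Stra6, which has several starts, 30 bases around the match (chr9:58129193-58129222).
Swap70: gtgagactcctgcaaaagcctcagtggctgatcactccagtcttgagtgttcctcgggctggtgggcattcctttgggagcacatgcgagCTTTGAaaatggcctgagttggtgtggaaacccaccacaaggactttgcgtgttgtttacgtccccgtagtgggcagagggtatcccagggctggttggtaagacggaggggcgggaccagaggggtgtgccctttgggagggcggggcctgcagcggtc
Tbc1d9: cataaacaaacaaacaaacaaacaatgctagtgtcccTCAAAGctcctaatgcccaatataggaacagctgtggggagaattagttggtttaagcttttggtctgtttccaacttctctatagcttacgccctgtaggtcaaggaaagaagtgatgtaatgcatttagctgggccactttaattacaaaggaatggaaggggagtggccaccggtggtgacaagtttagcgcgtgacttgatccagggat
Stra6: gaaactcagccaTCAAAGccctggcttctc
The hexamer begins at position -160 of the Swap70 start, -213 of the Tbc1d9 start and -144 of the Stra6 start. The Axin2 promoter window held 0 matches, and no match says only that these letters are not in that window.

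Over all tested genes, the 2 groups did not overlap for 3135 genes under Wnt3a, 23.6%, of which 1814 were higher (13.7%) and 1321 lower (9.95%) in ΔHD1/-. With 2 lines against 2 an exact permutation test cannot give a two-sided p below 0.333, so non-overlap is a description here. To describe the wider gaps, a gene is called separated below when the lowest library of 1 group lay above the highest library of the other by at least 1 on the log2(CPM + 1) scale. This held for 119 genes, 0.897% of those tested, with 63 higher (0.475%) and 56 lower (0.422%) in ΔHD1/-. The median log2 fold change of all tested genes was 0.03.

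The widest gap belonged to Cd34, a sialomucin of progenitor and endothelial cells, with 119 and 36.3 CPM in ΔHD1/- and 0.222 and 0.391 in ΔHD1/fl. Its log2 fold change of 5.68 ± 1.11 did not pass the test without a replicate block (limma, adjusted p = 0.0748). After the called genes Pak6 and, further down, Tbc1d9 are set aside, the next gaps on the higher side were those of Galnt12, Slc38a1, Lmo1, Itm2a and Gfra2. Galnt12, an enzyme that starts mucin-type O-glycans, was at 11.1 and 12.5 CPM against 0.349 and 0.213. Slc38a1, a glutamine transporter, had 101 and 54.0 CPM against 0.159 and 6.25, and Lmo1, a LIM-only transcriptional cofactor, 17.5 and 23.3 against 0 and 1.56. Itm2a, a small membrane protein, was at 12 and 5.18 CPM against 0.0317 and 0.213, and Gfra2, a GDNF family coreceptor, at 46.5 and 19.2 against 0.0951 and 3.30. In these genes after Cd34 the ΔHD1/fl lines had at most 6.25 CPM and both ΔHD1/- lines lay above them, and adjusted p ran from 0.162 for Gfra2 to 0.905 for Lmo1 (limma).

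On the lower side, the gaps after Stra6 and Sema4a belonged to Nkd2, Lbp, Mark1, Akr1c18, Igfbp2 and Aldh3a1. Nkd2, a cytoplasmic antagonist of Dishevelled and a feedback gene of Wnt signaling, was at 6.22 and 1.5 CPM in ΔHD1/- and at 553 and 64.6 in ΔHD1/fl. Lbp, the lipopolysaccharide-binding protein, was at 4.33 and 0.324 CPM against 59.1 and 44.8. Mark1, a kinase of microtubule-associated proteins, was at 0.0699 and 0.0405 CPM against 8.18 and 15.3, and the ΔHD1/- values were below the 3 reads that served as floor. Igfbp2, a secreted binding protein of insulin-like growth factors, was at 0.839 and 0.567 CPM against 10.2 and 1820, the ΔHD1/fl lines being far from each other. None of Nkd2, Lbp, Mark1 and Igfbp2 passed the test without a replicate block, with adjusted p from 0.194 for Mark1 to 0.836 for Lbp (limma).

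Most of these differences were also there without Wnt3a. Of the 119 separated genes, 102 had untreated groups that did not overlap in the same direction, 57 higher (0.43% of tested genes) and 45 lower (0.339%), and 67 of the 102 had an untreated gap of at least 1 as well. The untreated mean difference had the same sign in 118 of the 119. The same lines gave both sets of libraries, so these are 2 conditions of the same lines and not independent samples. Without cytokine 111 genes were separated, 0.836%, with 68 higher (0.512%) and 43 lower (0.324%). There 9 genes passed the test, 0.0678%, 6 of them higher (0.0452%) and 3 lower (0.0226%). Pak6, Tbc1d9, Sema4a and Akr1c18 passed in both conditions, with untreated log2 fold changes of 4.20 for Pak6, 3.71 for Tbc1d9, -3.85 for Sema4a and -4.37 for Akr1c18 (limma, adjusted p 0.00521, 0.0327, 0.00681 and 0.00973). Swap70, at 163 and 161 CPM against 63.2 and 54.0 without cytokine, had an adjusted p of 0.0844 there.

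A smaller group was apart under every condition of the series. The groups did not overlap in the same direction under no cytokine, Wnt3a and TGFβ for 66 of the 119 genes, and 26 were separated by at least 1 in all 3 conditions, 17 higher and 9 lower. Pak6, Tbc1d9, Cd34, Galnt12, Slc38a1, Lmo1, Itm2a and Sema6b were among the 17, and Sema4a, Lbp and Mark1 among the 9. Under TGFβ 4 genes passed (0.0301%), Pak6 and Tbc1d9 among them, 1091 had an unadjusted p under 0.05 (8.22%), and 173 were separated (1.3%). The groups did not overlap there for 899 higher (6.77%) and 3014 lower genes (22.7%). Under TGFβ, Pak6 was at 17.6 and 23.3 CPM in ΔHD1/- and at 0.0841 and 1.92 in ΔHD1/fl. Swap70 was not among them, since its TGFβ levels of 107 and 140 CPM lay close to the 103 and 74.3 CPM of ΔHD1/fl.

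**Figure D2:**
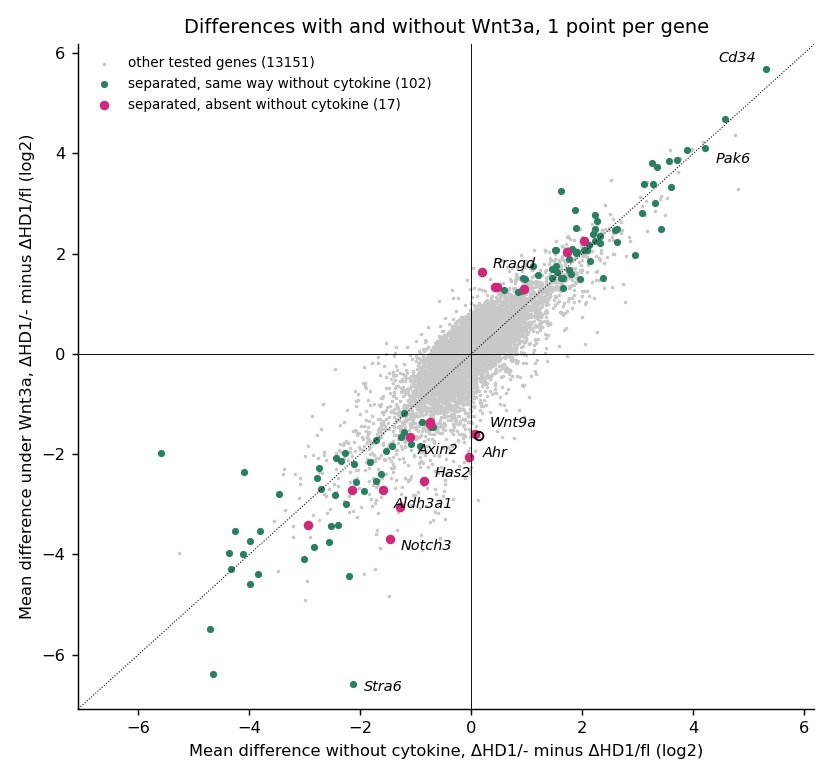
Mean difference between ΔHD1/- and ΔHD1/fl (log2) without cytokine on the x axis and under Wnt3a on the y axis, 1 point per tested gene, with the line of equal differences dotted. The 102 separated genes shared with the untreated condition (green) scatter around that line, with Stra6, Igfbp2 and Krt16 among those below it, and the 17 absent from it (pink) include Ahr and Wnt9a near 0 on the x axis. Axin2 is circled, having no overlap but a gap under 1.

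The difference was absent from the untreated libraries for 17 of the 119 separated genes, 14.3%, in the sense that their untreated groups overlapped. Of these, 11 were lower in ΔHD1/- (0.0829% of tested genes) and 6 higher (0.0452%). None of the 17 was apart the other way without cytokine, 16 had an untreated mean difference of the same sign, and in 5 that difference was under 0.5. In the other direction, 6 of the 111 genes separated without cytokine overlapped under Wnt3a, 5.4%. None of the 17 passed the test under Wnt3a.

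Ahr, the ligand-activated aryl hydrocarbon receptor, was the clearest of the lower genes by its untreated levels. Under Wnt3a it was at 53.3 and 30.4 CPM in ΔHD1/- and at 110 and 266 in ΔHD1/fl. Without cytokine all 4 lines lay between 22.6 and 32.7 CPM, with both ΔHD1/fl lines inside the range of the ΔHD1/- lines. The log2 fold change under Wnt3a was -2.06 ± 0.41 (limma, adjusted p = 0.0748, passing without ΔHD1/fl line 1 at 0.00668 and without ΔHD1/- line 1 at 0.032, up to 1 over the alternatives) and without cytokine -0.05. Ahr rose under Wnt3a in the ΔHD1/fl lines by 2.55 on the log2 scale (limma, adjusted p = 0.0494), where it was 1 of 2 genes called (0.0151%), the other being Axin2, and 212 had an unadjusted p under 0.05 (1.6%). In ΔHD1/- the response of Ahr was 0.55 and did not pass (limma, adjusted p = 1). Both responses were tested without pairing the libraries of a line, so differences between lines stayed in the error. ΔHD1/- line 1 went from 22.6 CPM without cytokine to 53.3 with Wnt3a, and ΔHD1/- line 2 from 32.7 to 30.4. The difference in response between the groups did not pass for Ahr. The call in ΔHD1/fl alone therefore does not show a loss of response in ΔHD1/-. Aldh3a1, an aldehyde dehydrogenase and a textbook Ahr target, was at 645 and 449 CPM in ΔHD1/- and at 3620 and 3510 in ΔHD1/fl under Wnt3a. Without cytokine the ranges overlapped, at 230 and 990 against 983 and 2120. Both genes were also lower under TGFβ, a condition without Wnt3a, where Ahr was at 5.52 and 6.52 CPM against 28.8 and 18.5 (limma, adjusted p = 0.128) and Aldh3a1 at 0.715 and 5.08 against 76.9 and 476, a log2 fold change of -5.90 that passed (limma, adjusted p = 0.032). Of the 8 tested members of the Ahr list 3 were lower without overlap (Ahr, Aldh3a1 and Tiparp) and none higher, against 9.95% and 13.7% of all tested genes, and the list's median log2 fold change was -0.76 under Wnt3a and -0.23 without cytokine.

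Wnt9a, a Wnt ligand, was at 38.4 and 23.8 CPM in ΔHD1/- and at 96.2 and 91.8 in ΔHD1/fl under Wnt3a, and at 17.4 and 8.31 against 7.96 and 16.4 without cytokine. All 4 lines had more Wnt9a with Wnt3a, the ΔHD1/fl lines by more. Has2, which makes hyaluronan, was at 9.40 and 6.96 CPM against 61.1 and 43.7 under Wnt3a and at 10.9 and 2.73 against 10.5 and 11.7 without cytokine. Notch3, a Notch receptor, was at 5.66 and 0.243 CPM against 75.4 and 17.3, while without cytokine ΔHD1/fl line 2 had 1.53 CPM and fell between the ΔHD1/- lines at 5.90 and 0.0297. Ralgps2, an exchange factor for Ral GTPases, was at 7.37 and 0.0810 CPM against 27 and 21.1 under Wnt3a and at 4.49 and 0.0297 against 4.21 and 5.52 without. In Has2, Notch3 and Ralgps2, as in Ahr and Wnt9a, the untreated levels of at least 1 ΔHD1/fl line lay within the ΔHD1/- range and both ΔHD1/fl lines were higher with Wnt3a. The log2 fold changes under Wnt3a were -1.60 for Wnt9a, -2.53 for Has2, -3.70 for Notch3 and -3.05 for Ralgps2, with adjusted p from 0.72 for Wnt9a to 0.945 for Has2 (limma).

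The other lower genes of this kind were Csf2rb, Myo7a, Slc2a6, Lratd1 and P3h2. Csf2rb, a cytokine receptor subunit, was at 0.315 and 0.850 CPM against 4.63 and 48.0 under Wnt3a, and its untreated overlap came from ΔHD1/- line 2 at 12.6 CPM, which lay above ΔHD1/fl line 1 at 6.63. P3h2, a prolyl hydroxylase of collagen, was at 9.26 and 11.1 CPM against 24.9 and 32.6 under Wnt3a and at 23.5 and 35.4 against 28.1 and 85.1 without cytokine, both ΔHD1/- lines being lower with Wnt3a than without. Slc2a6, a sugar transporter, was at 2.66 and 3.44 CPM against 9.76 and 8.81, and Myo7a, an unconventional myosin, at 4.72 and 5.14 against 14.9 and 93.4. Lratd1 was at 7.93 and 4.13 CPM against 18.2 and 22.7. Lratd1 and P3h2 lay outside the rule for named genes and were chosen after their values were seen. Over the 11 lower genes, both ΔHD1/fl lines were higher by at least 0.5 under Wnt3a in 7, and the median response was 1.82 in ΔHD1/fl line 1, 1.76 in ΔHD1/fl line 2, 0.61 in ΔHD1/- line 1 and -0.10 in ΔHD1/- line 2. These responses use the same Wnt3a values that selected the genes and are given as a description.

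**Figure D3:**
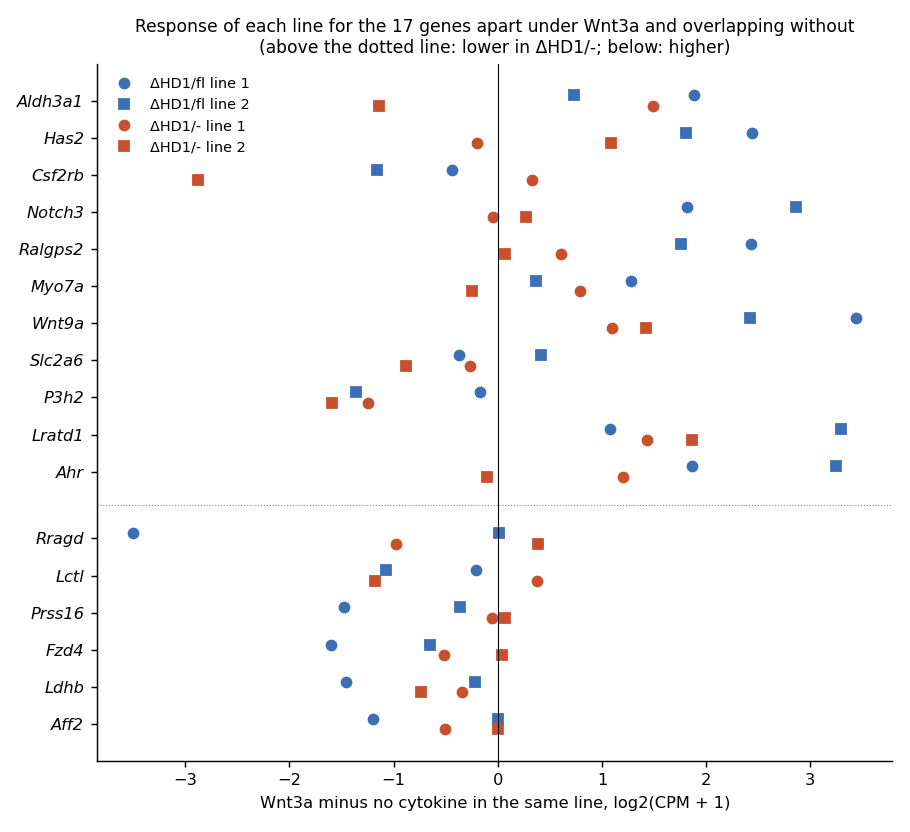
Level under Wnt3a minus the untreated level of the same line, on the log2(CPM + 1) scale (x axis), for the 17 genes whose groups were separated under Wnt3a and overlapped without it, 1 point per line (blue ΔHD1/fl, orange ΔHD1/-, circles line 1, squares line 2). Of the 11 genes lower in ΔHD1/-, 7 have both blue points at 0.5 or more, whereas for the 6 higher genes the leftmost point is ΔHD1/fl line 1 in all but Lctl.

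The 6 genes that were higher under Wnt3a and overlapped without it were Rragd, Lctl, Prss16, Fzd4, Ldhb and Aff2. In 5 of the 6 the level of ΔHD1/fl line 1, the library that stood apart, was at least 1 log2 unit lower with Wnt3a than without. Rragd, a Rag GTPase of amino acid sensing, was at 4.05 and 4.09 CPM in ΔHD1/- and at 0.729 and 0.533 in ΔHD1/fl, and ΔHD1/fl line 1 had 18.5 CPM without cytokine. Fzd4, a Frizzled receptor, was at 5.77 and 4.53 CPM against 1.2 and 1.63 under Wnt3a and at 8.72 and 4.39 against 5.67 and 3.13 without. Ldhb, a lactate dehydrogenase subunit, was at 13.2 and 14.1 CPM against 5.83 and 0.888. Lctl was at 11.9 and 10.9 CPM against 0.380 and 3.87, Prss16 at 3.57 and 3.20 against 0.951 and 0.533, and Aff2 at 1.96 and 1.54 against 0.254 and 0. The median response of the 6 genes was -1.47 in ΔHD1/fl line 1, -0.29 in ΔHD1/fl line 2, -0.43 in ΔHD1/- line 1 and 0.02 in ΔHD1/- line 2.

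Whether a difference depended on Wnt3a was tested directly, as the response to Wnt3a in ΔHD1/- minus that in ΔHD1/fl. No gene passed (0.0% of tested genes, limma, lowest adjusted p = 1), 15 genes had an unadjusted p under 0.05 (0.113%), and edgeR's quasi-likelihood test called none as well, with 25 at an unadjusted p under 0.05. With the cell line as a block, which these data allow since the same line was used with and without Wnt3a, no gene passed either and 155 had an unadjusted p under 0.05. Of the 17 absent genes, 1 had an unadjusted p under 0.05 without the block and 3 with it. The difference in response was -2.0 for Ahr, -1.67 for Wnt9a, -1.68 for Has2 and -1.13 for Aldh3a1 on the log2 scale. Absence from the untreated libraries is thus a statement on overlap and not a tested difference between conditions. Without ΔHD1/fl line 2, which leaves the library that stood apart as the lone ΔHD1/fl line, 54 genes passed, 51 of them with the lower response in ΔHD1/-.

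Axin2 rose under Wnt3a in both groups. It was at 32.9 and 13.5 CPM in ΔHD1/- and at 80.8 and 57.4 in ΔHD1/fl under Wnt3a, and at 1.33 and 0.683 against 0.320 and 1.45 without cytokine. It rose by 5.26 on the log2 scale in ΔHD1/fl (limma, adjusted p = 3.28e-06) and by 3.48 in ΔHD1/- (limma, adjusted p = 0.00164), both tested without pairing the libraries of a line. In ΔHD1/- it was the only gene called by this unpaired test (0.00754%), next to 27 at an unadjusted p under 0.05 (0.203%). Under Wnt3a the ΔHD1/- lines lay below the ΔHD1/fl lines with a gap of 0.79, a log2 fold change of -1.64 ± 0.41 that did not pass (limma, adjusted p = 0.345). Without cytokine the groups overlapped, with a log2 fold change of 0.14. The difference in response was -1.78 with an unadjusted p of 0.00655 and an adjusted p of 1 (limma). Without ΔHD1/fl line 2 or ΔHD1/- line 1, the Axin2 difference under Wnt3a passed (limma, adjusted p = 0.0335 and 0.0121), and over all the alternatives adjusted p ran from 0.0121 to 1.

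The other targets and feedback genes of the pathway did not pass the test. Of 25 listed, 17 were tested, 3 were lower without overlap (Axin2, Notum and Nkd2) and 1 higher (Kremen1), against 9.95% lower and 13.7% higher of all tested genes, and the median log2 fold change was -0.08. Notum, a secreted enzyme that inactivates Wnt proteins, was at 334 and 108 CPM in ΔHD1/- against 503 and 1280 in ΔHD1/fl, and it was also lower without overlap in untreated cells, at 60.4 and 58.9 against 84.1 and 432. Ccnd1 (cyclin D1) overlapped at 1170 and 614 CPM against 1960 and 712, and so did Myc at 98.9 and 91.5 against 182 and 90.9. Lef1 was below 0.13 CPM in all 4 libraries and Rnf43, a ligase that removes Frizzled receptors, was above 1 CPM in ΔHD1/fl line 1 only, at 4.09. Of the 35 tested receptors, ligands and transduction genes, 7 were lower without overlap and 2 higher, against 9.95% lower and 13.7% higher of all tested genes, and the median was -0.31 against -0.27 without cytokine. Fzd7 was among the lower ones at 42.9 and 59.8 CPM against 175 and 106, and Wnt4 at 43.3 and 1.82 against 165 and 54.6.

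Besides Stra6, retinoid genes were apart in both directions. The counts of this paragraph stand beside 9.95% of all tested genes lower and 13.7% higher without overlap. Cyp26b1, which degrades retinoic acid, was at 0.699 and 0.283 CPM in ΔHD1/- and at 104 and 3.30 in ΔHD1/fl, and Dhrs3, which reduces retinal to retinol, was higher at 15.3 and 18.1 against 5.64 and 4.80. Both were separated without cytokine too. Of 14 tested members of this list, 4 were lower and 1 higher without overlap, and 1, Stra6, passed. Among 19 tested detoxification genes, 6 were lower without overlap and none higher, with Gsta4, a glutathione transferase, at 94.5 and 68.0 CPM against 195 and 424. Among 28 tested semaphorins and plexins, 5 were lower and 2 higher. Sema3c was at 48.2 and 55.5 CPM against 138 and 392, and Sema6b at 4.72 and 10.1 against 0.190 and 1.31.

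The lists with the lowest medians were those of keratinocyte differentiation, of leukocytes (-1.43 over 4 tested genes) and of basal epithelium. Of 15 tested keratinocyte differentiation genes 6 were lower and none higher without overlap, against 9.95% lower and 13.7% higher of all tested genes, and the median log2 fold change was -2.40 under Wnt3a against -0.69 without cytokine. Their summed level was 2050 CPM in ΔHD1/fl line 1, 55.8 in ΔHD1/fl line 2 and 23.4 and 20.6 in the ΔHD1/- lines, and without cytokine 284, 26.8, 18.1 and 13.6 in the same order. Most of this summed level was in the 1 library that stood apart. Cnfn, a cornified envelope protein, reached 325 CPM in ΔHD1/fl line 1 against 0.781, 0.245 and 0.0405 for the other 3, and Klk7, a protease of the outer epidermis, at 168 CPM there and at 0, 0.140 and 0 elsewhere. Sbsn (suprabasin), the separated member, was at 13.7 and 13.6 CPM in ΔHD1/- against 789 and 49.2. Of 12 tested basal epithelial genes 4 were lower and none higher beside the same shares, with a median of -1.32 under Wnt3a against -0.97 without cytokine. Krt16, a keratin of activated epidermis, was at 5.66 and 4.29 CPM against 1070 and 14.5, and Krt6a at 0.909 and 15.1 against 497 and 34.8. Without cytokine Krt16 was at 11.1 and 7.33 CPM against 58.8 and 34.5, and Krt6a at 1.15 and 27.8 against 111 and 139. Krt16, Krt6a and Sbsn were thus separated without cytokine too, and both keratins were lower with Wnt3a than without in ΔHD1/fl line 2. None of these genes passed the test.

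Proliferation genes that were apart were higher in ΔHD1/-. Of 24 tested, 10 were higher without overlap and none lower, against 13.7% and 9.95% of all tested genes, none was separated, and none passed. The median log2 fold change was 0.46 under Wnt3a and -0.21 without cytokine. The summed level was 4910 and 5700 CPM in the ΔHD1/- lines and 2840 and 6460 in the ΔHD1/fl lines, so that the sums overlapped and ΔHD1/fl line 1 was the lowest. Ccnb1 (cyclin B1) was at 82.6 and 84.1 CPM against 23.3 and 66.9, and Plk1, a mitotic kinase, at 246 and 202 against 104 and 161. Without cytokine ΔHD1/fl line 1 had a sum of 5020 CPM.

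The median of the 20 tested mesenchymal genes was 0.76 and that of the 24 tested epithelial adhesion genes -0.52, with 1 gene of the former separated (Tnc, higher) and none of the latter. The counts of the remaining lists also stand beside 13.7% of all tested genes higher and 9.95% lower without overlap. The luminal epithelial list had 1 of 14 tested members higher and 2 lower without overlap, the fibroblast list none of 8, interferon response and antigen presentation 1 of 29 higher and 2 lower, chemokines and cytokines 3 of 25 higher and 3 lower, matrix proteases and inhibitors 3 of 23 each way, and AP-1 genes 1 of 20 higher and 3 lower. TGFβ pathway genes had 6 of 26 lower and none higher, with Ltbp2, a matrix protein, at 16.3 and 1.54 CPM against 177 and 61.7. The Notch list had 3 of 13 lower and 1 higher, and CDK inhibitors and p53 targets 4 of 21 higher and 1 lower. Of these 23 lists, those of retinoid, detoxification and semaphorin genes each held 1 gene that passed and the others none.

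**Figure D4:**
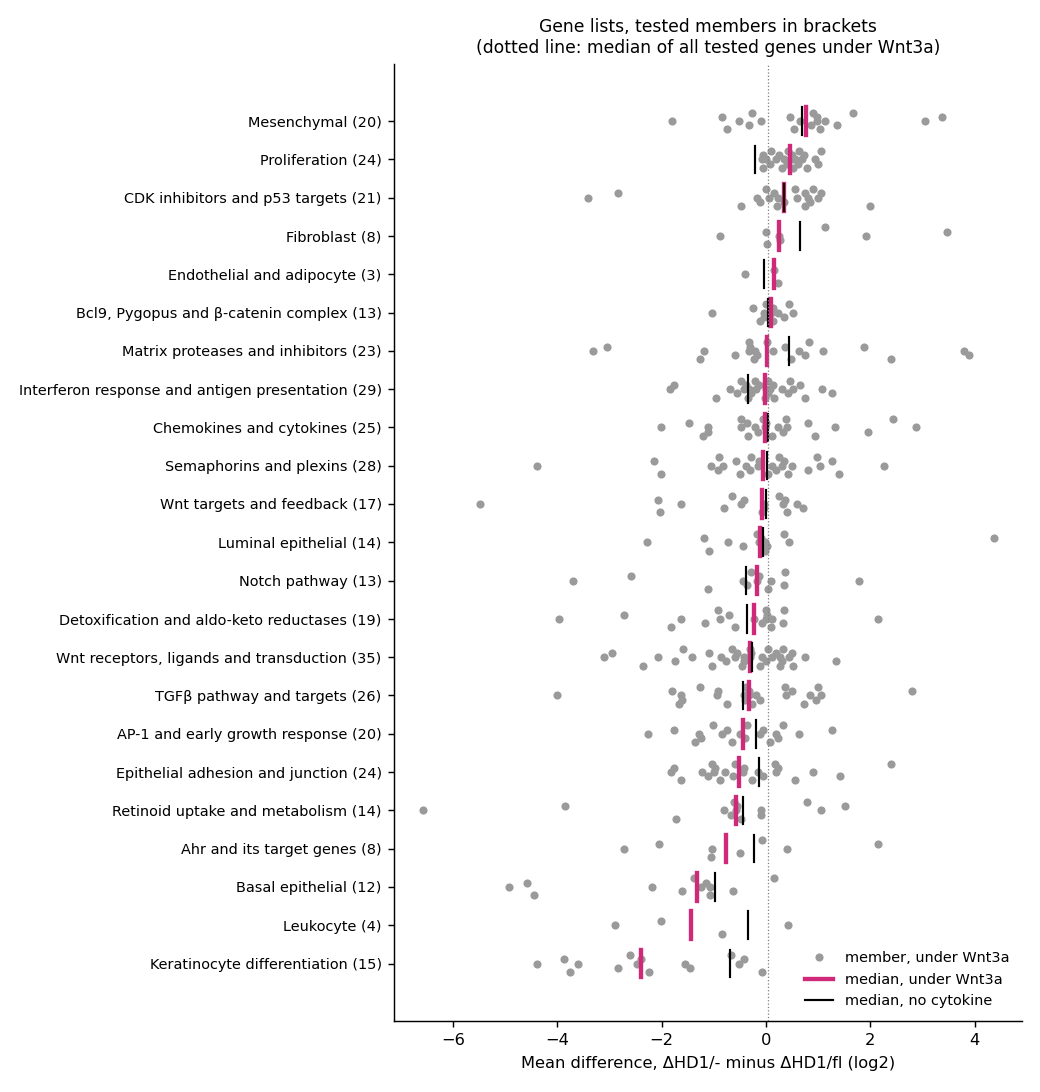
Mean difference between ΔHD1/- and ΔHD1/fl under Wnt3a (log2, x axis) for every tested member of 23 gene lists (grey points, lists on the y axis with their number of tested members), with the list median under Wnt3a (pink bar) and without cytokine (black bar). The keratinocyte differentiation list has the lowest median under Wnt3a, -2.40 against -0.69 without cytokine, and the proliferation list has a median of 0.46 against -0.21 without cytokine.

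The ΔHD2 lines of the same series, in which the β-catenin binding domain is mutated, gave a comparison in other cell lines, with 3 ΔHD2/- and 2 ΔHD2/fl libraries under Wnt3a. The ΔHD2/- lines 2 and 3 were nearly alike (correlation 0.997) and are not independent of each other. Of the 56 genes separated and lower in ΔHD1/-, 23 (41.1%) were also lower in ΔHD2/- without overlap and none was higher, where 15.6% of all tested genes were lower and 15.4% higher. With ΔHD2/- lines 1 and 2 alone, a choice made after the data were seen, 24 were lower. Of the 63 genes separated and higher in ΔHD1/-, 3 (4.8%) were also higher in ΔHD2/-, Dpysl2, Swap70 and Rnf157, and 12 (19.0%) were lower. Among the 23 were Stra6, Sema4a and Akr1c18, and, of the 11 genes absent without cytokine, Ahr, Aldh3a1, Has2, Wnt9a and Lratd1. For Sema4a the ΔHD2 groups came close to overlap, at 5.47, 2.90 and 4.04 CPM in ΔHD2/- against 5.64 and 12.2 in ΔHD2/fl. Its ΔHD2 log2 fold change of -0.90 did not pass (limma, adjusted p = 0.675). Of the other genes named among the 23, Ahr, Akr1c18 and Aldh3a1 passed in the ΔHD2 lines (limma, adjusted p = 0.0024, 0.00336 and 0.00757). Stra6, Has2, Wnt9a and Lratd1 did not, with adjusted p from 0.159 for Stra6 to 0.504 for Lratd1 (limma). That fit counted ΔHD2/- lines 2 and 3 as independent.

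In the ΔHD2 lines, Ahr was at 17.1, 37.4 and 37.7 CPM in ΔHD2/- and at 168 and 154 in ΔHD2/fl under Wnt3a, a log2 fold change of -2.43 next to -2.06 in the ΔHD1 lines. Aldh3a1 was at 41.4, 68.0 and 69.3 CPM against 3730 and 923, and Axin2 at 17.7, 21 and 18.4 against 72.7 and 78.0. The ΔHD2 difference of Axin2 passed (limma, adjusted p = 0.0153). Akr1c18 was at 1.39, 0.0830 and 0.0358 CPM against 16.4 and 20.3, with log2 fold changes of -3.79 in the ΔHD2 and -3.97 in the ΔHD1 lines. Pak6 was lower in ΔHD2/-, at 0.616, 0 and 0 CPM in ΔHD2/- against 17.3 and 11.7 in ΔHD2/fl, so that the ΔHD1 difference exceeded the ΔHD2 difference by 7.81 ± 0.77 (log2, limma, adjusted p = 6.33e-05). Tbc1d9, low in ΔHD1/fl, was at 68.6 to 85.8 CPM in all 5 ΔHD2 libraries.

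**Figure D5:**
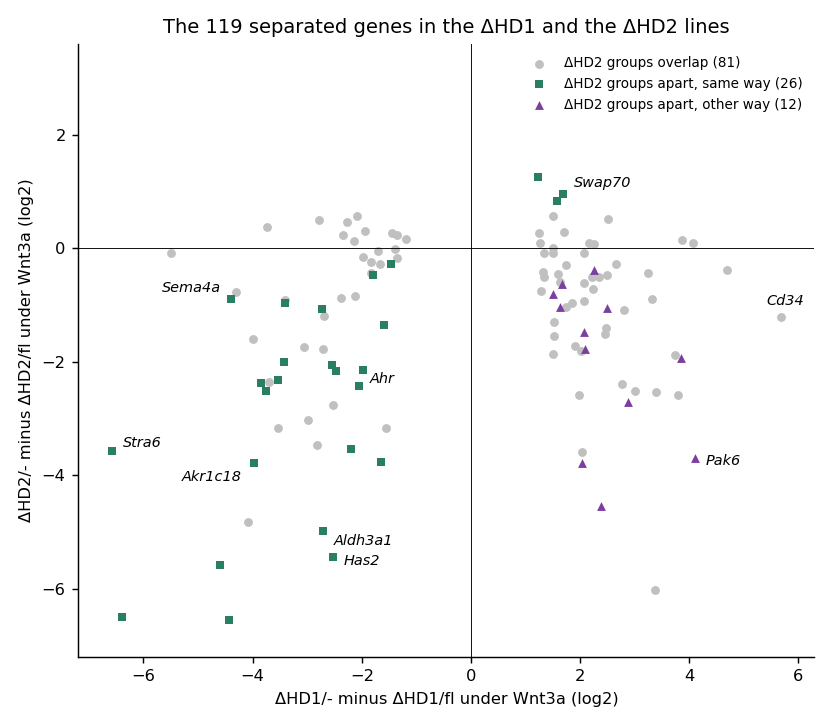
Mean difference under Wnt3a (log2) in the ΔHD1 lines (x axis) and in the ΔHD2 lines (y axis) for the 119 genes separated in the ΔHD1 lines, 1 point per gene, by whether the ΔHD2 groups overlapped (grey, 81), were apart the same way (green, 26) or the other way (purple, 12). The green points lie mostly among the lower genes, 23 of the 26, and the purple points are all among the higher genes, Pak6 being one of them.

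The groups also differed by chromosome. Non-overlapping genes were higher in ΔHD1/- for 29.3% of tested genes on chromosome 4 and 26.8% on chromosome 9, against 13.7% of all tested genes, and lower for 2.04% and 3.46% there. On chromosome 1 the order was reversed, with 3.74% higher and 25.9% lower, and without cytokine 41.7% were lower. The median log2 fold change was 0.26 on chromosome 4, 0.27 on chromosome 9 and -0.27 on chromosome 1, and 0.24, 0.25 and -0.29 after median-of-ratios scaling. Between single libraries, the chromosome 9 median was 0.55 and 0.47 for the ΔHD1/- lines over ΔHD1/fl line 1 but 0.11 and 0.00 over ΔHD1/fl line 2, and the chromosome 1 median was -0.45 and -0.37 against ΔHD1/fl line 2 but -0.08 and -0.01 against ΔHD1/fl line 1. The medians of chromosomes 1 and 9 thus each followed 1 ΔHD1/fl line. Chromosome 4 did not, with 0.23 and 0.40 for ΔHD1/- line 1 over ΔHD1/fl lines 1 and 2, and 0.07 and 0.26 for ΔHD1/- line 2. Nor did chromosome 18, where 7.63% of tested genes were higher and 25.5% lower. Its medians were -0.22 and -0.31 for ΔHD1/- line 1 and -0.08 and -0.27 for ΔHD1/- line 2, in the same order. The part of these chromosome medians in single genes was not tested. Of the separated genes, 8 were higher and 2 lower on chromosome 4, 5 and 3 on chromosome 9, and 5 and 6 on chromosome 1. Stra6, on chromosome 9, was lower in ΔHD1/-, and Cd34, on chromosome 1, was higher, opposite to their chromosomes' medians. Galnt12, on chromosome 4, was higher, and Mark1 and Igfbp2, on chromosome 1, were lower, the same way as their chromosomes' medians.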

How the data were processed

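Messenger RNA of 27 libraries had been sequenced as single reads from stranded TruSeq libraries, aligned by the authors with STAR to mm10 keeping unique hits, and counted with QuasR over RefSeq exons. The deposited table holds counts-per-million (CPM) values that the authors made from these counts, 1 column per library, for 24454 Entrez ids, 24374 of which matched a symbol. Every CPM value was a whole multiple of 1 read within a tolerance of 0.01, so reads were recovered, 21864011 to 33692360 per library. A floor of 3 reads was 0.0951 to 0.1215 CPM in the 4 Wnt3a libraries and covers counting error only.

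Differences were tested with limma 3.58.1 (R 4.3.3, trend and robust) on log2(CPM + 1) with all 27 libraries in 12 groups, for the 13270 genes reaching 1 CPM in 2 or more libraries, without a block. The pseudocount of 1 understates changes of low genes. A gene was called at an adjusted p (Benjamini-Hochberg) up to 0.05 with a log2 fold change of at least 1 in size. edgeR 4.0.16 on the recovered reads was an alternative, with another pseudocount, no filter, median-of-ratios scaling, fewer libraries and a replicate block. On simulated data (13002 genes), the Wnt3a comparison recovered 53% of 100 genes changed 4-fold and 84% of 100 changed 16-fold, with 6 false calls. The simulation drew every library independently, without differences between lines that persist across conditions, so these rates do not carry over to the real lines.

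Line numbers pair Wnt3a with untreated libraries, since the methods state that the same lines were used. Their deviations from group means correlated at 0.861 (ΔHD1/fl) and 0.94 (ΔHD1/-). Named genes were 11 preset genes, all called genes, the 8 widest gaps each way among separated and among absent genes, and up to 4 members per list. The comparison and the lists were chosen with earlier results of these data known, and 1 list is not reported here. Figures were drawn with matplotlib 3.10.9.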

Additional observations from a re-analysis of the deposited data

Results flagged for a closer look

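The responses to Wnt3a went opposite ways in the 2 ΔHD1/- lines and the 2 ΔHD1/fl lines for 9 of the reported genes. The opposite directions themselves were not tested, and none of the 9 passed the limma test of the difference in response (adjusted p = 1). The share of all tested genes with this pattern was not counted, so the 9 genes are a description and no excess can be read from them. Bcl9 was lower with Wnt3a in both ΔHD1/- lines and higher in both ΔHD1/fl lines, a mean difference in response of -1.25 on the log2 scale. Ier3, an early response gene, had -1.17 and Krt7, a luminal keratin, -1.08, both in the same direction as Bcl9, although Krt7 was near 0 CPM in both lines 2. The replication helicase genes Mcm5, Mcm3 and Mcm6 had 0.81, 0.76 and 0.72, being higher with Wnt3a in both ΔHD1/- lines and lower in ΔHD1/fl line 1. Their responses were -0.62, -0.64 and -0.58 in ΔHD1/fl line 1, the library that stood apart, but only -0.08, -0.02 and -0.03 in ΔHD1/fl line 2. The chemokine Ccl9 had 1.0, the collagen Col1a2 0.94 and the Bcl9 partner Ssbp3 0.24 in the same direction as the Mcm genes.

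The difference between the genotypes in Pak6 under Wnt3a was higher in the ΔHD1 lines and lower in the ΔHD2 lines, and the 2 differences were 7.81 apart on the log2 scale (limma, adjusted p = 6.33e-05). Pak6 was higher in 2 of 2 ΔHD1/- lines and lower in 3 of 3 ΔHD2/- lines, of which lines 2 and 3 were nearly alike.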

How the results depend on the processing

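Against 6 calls under Wnt3a, there were 13 with no filter, 0 with only the 12 ΔHD1 libraries, 41 with the replicate block (19 higher, 22 lower), 1 with edgeR, 630 at an unadjusted p and 1.5-fold, and 36 to 703 leaving out each line in turn. The 9 untreated calls became 5 with a pseudocount of 0.1, 14 with no filter, 0 with the 12 libraries, 37 with the replicate block, 0 with edgeR (668 genes at an unadjusted p under 0.05), 500 at an unadjusted p and 29 to 225 leaving out a line. The 0 calls for the difference in response became 15 at an unadjusted p and 0 to 54 leaving out a line, and stayed 0 in every other setting run, the replicate block included. With the block Cd34, Galnt12, Itm2a, Nkd2, Mark1 and Sema6b gained the call under Wnt3a, and with a pseudocount of 0.1 Pak6 and Akr1c18 lost it. The deviations of same-numbered ΔHD1/- and ΔHD1/fl lines correlated at 0.407 under Wnt3a and 0.472 without cytokine. With 2 lines a group, the deviations of line 2 mirror those of line 1 and add no further pair. By whole profiles under Wnt3a, ΔHD1/- line 1 was nearer to ΔHD1/fl line 2 (correlation 0.904) than to line 1 (0.886). Without cytokine it was nearer to line 1 (0.915 against 0.900), and ΔHD1/- line 2 was nearer to ΔHD1/fl line 2 in both conditions. The data thus do not settle whether the numbers pair the lines, and no source used here states that they do. The 119 separated genes became 429 at a gap of 0.5, 23 at a gap of 2 and 240 with a pseudocount of 0.1, and 622 to 2021 leaving out a line, where fewer libraries make separation easier. The 17 absent ones became 82, 2 and 42, 5 when the untreated mean difference had to be under 0.5, and 20 to 258 leaving out a line, 114 without ΔHD1/fl line 1 and 258 without ΔHD1/fl line 2. Leaving out lines of the separated and absent genes was chosen after seeing the data. Of the values of single named genes under the alternatives, 509 kept direction and call, 23 gained and 17 lost the call, and 10 changed sign. The sign changes all came from leaving out a line, in genes not called, with log2 fold changes of -0.51 to 0.76 for Bcl9l, -1.85 to 0.26 for Rnf43, -0.09 to 0.03 for Lef1, -1.21 to 0.25 for Ccnd1, -0.93 to 0.06 for Myc, -4.45 to 4.86 for Cdh1 and -2.1 to 3.43 for Vim. The causes were not tested. With 2 lines a group, genes that vary between lines could not be resolved at this depth of replication, and genes near the 3-read floor carry folds that depend on the pseudocount.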

Other observations

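Some further separated genes belong to no list, and all named here were chosen after their values were seen. Col4a5 and Col4a6, neighboring genes for basement membrane collagen chains, were both higher in ΔHD1/-, with Col4a5 at 335 and 340 CPM against 109 and 114 and Col4a6 at 191 and 305 against 43.9 and 27.2 under Wnt3a. Bmf, a pro-apoptotic Bcl2 family member, was at 170 and 82.2 CPM against 18.8 and 21.7, and Nfia, a transcription factor, at 15.2 and 19.8 against 4.03 and 1.07. Stat3, a transcription factor of cytokine signaling, was lower in ΔHD1/- at 159 and 194 CPM against 406 and 398, with a log2 fold change of -1.19 that did not pass the test (limma, adjusted p = 0.0748). Foxq1, a forkhead factor, was at 19.6 and 10.7 CPM against 86.6 and 74.2, and Gli1, a transcription factor of Hedgehog signaling, at 0.594 and 0.850 against 4.37 and 11.9. None of these genes passed the test.

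Of 6 tested insulin-like growth factor binding proteins, also looked at after their values were seen, Igfbp2, Igfbp5 and Igfbp7 were separated and lower in ΔHD1/- under Wnt3a, against 0.422% of all tested genes. Igfbp3, Igfbp4 and Igfbp6 were not separated, with log2 fold changes of 0.40, -0.26 and 0.21. Igfbp7 was at 33.0 and 50.3 CPM against 117 and 129. Igfbp5 was at 0.140 and 1.42 CPM against 3.93 and 7.60 under Wnt3a, and at 0.128 and 0.653 against 55.4 and 76.2 without cytokine. Its ΔHD1/fl levels were thus lower with Wnt3a in both lines, and the groups lay closer together under Wnt3a than without it.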
